A study of Mus musculus with 15 samples.

Results

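In macrophages lacking Ikaros, 2181 stretches of autosomal chromatin were listed as accessible before lipopolysaccharide (LPS) and in no list after it. They were chosen from the 6 knockout (KO) lists of DNase I hotspots on chromosomes 1 to 19. Each list was shortened to its 111553 hotspots of highest tag density, and hotspots that shared at least 1 bp were merged into union regions. A region was taken if it lay in both 0 h lists and in none of the 4 lists from 3 and 8 h. The 2181 closed regions made up 0.995% of the 219126 KO union regions and 3.2% of the 68207 that lay in both 0 h lists. Both percentages come from the values that chose the regions and carry no test. The word closed is used here for this pattern of listing. A hotspot list gives presence above a threshold, so a region that kept part of its accessibility below the threshold counts as closed too.

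Macrophages were grown from the bone marrow of C57BL/6J mice and given 10 ng/ml LPS for 0, 3 or 8 h. The genotypes were Ikzf KO (2 libraries per time), littermate control (1 per time) and wild type (WT, 2 per time), 15 libraries in 9 groups. KO, littermate and WT replicate 1 libraries are titled with 80 U of DNase and WT replicate 2 libraries with 100 U. The labels do not name the allele or the Ikzf gene, the genotype of the littermates, or whether replicates came from separate animals, so the spread between libraries may be technical. The lists hold no expression values, so neither the loss of Ikaros nor the cell type could be checked in them.

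LPS, from the outer membrane of Gram-negative bacteria, activates macrophages through Toll-like receptor 4 and leads to binding of NF-kB and other factors at promoters and enhancers. Some enhancers of resting macrophages lose accessibility in this response while others gain it. Ikaros, encoded by Ikzf1, is a zinc finger protein that binds DNA and can recruit the nucleosome remodelling complex NuRD, and it is best known for its role in lymphocyte development. DNase I cuts where nucleosomes are displaced, and a hotspot is a stretch where the sequenced cut ends pile up. In a bulk sample, fewer cells with an open site and a less open site in every cell cannot be told apart.

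The KO lists held 111553 to 132279 hotspots, the littermate lists 52400 to 114427 and the WT lists 15659 to 51834. The authors' Z-scores reached down to between 3.40 and 3.66 in KO lists, 3.65 and 4.54 in littermate lists, and 7.98 and 10.6 in WT lists. The WT lists thus hold hotspots of higher Z-score only, which need not have a high tag density. Read depth is unknown. The tag densities are whole multiples of a step of 0.237 to 0.451, and if 1 step is 1 tag at a common scale, the later KO libraries were deeper than the KO 0 h libraries (0.826 to 1 against 0.741 and 0.745, relative to the deepest). Coordinates below are mm9 as the lists give them. No mm9 annotation was at hand, so nearest genes, gene features and sequences were not analysed here.

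The closed regions were faint and short. Their highest tag density before LPS had a median of 3.18 in KO replicate 1 (quartiles 2.23 and 4.46) and 3.20 in replicate 2 (2.24 and 4.48). For the other regions in both 0 h lists the medians were 7.96 and 7.68. In steps, the closed regions reached a median of 10 in each library, and the others 25 and 24. Their mean tag density had a median of 1.30 in both libraries, against 2.94 and 2.90 for the others, and their Z-score 4.66 and 4.70, against 12.9 and 12.5. The median length was 560 bp (254 to 3540 bp), against 1169 bp for the others, 1258 bp for the 57729 regions in all 6 KO lists and 903 bp for the 5039 regions opened by LPS, that is, in no 0 h list and all 4 later lists. Regions in both 0 h lists and in 1 of the later lists, 1843 in number, were nearly as faint and short. Their highest tag density had medians of 3.50 and 3.52, their Z-score 5.15 and 5.18, and their length 660 bp. Together the closed regions covered 1.29 Mb. Their numbers can be set beside those of regions seen at 1 later time alone: 1469 lay in both 3 h lists and no other, with a median length of 563 bp, and 3487 in both 8 h lists and no other, with 603 bp. A further 47656 regions lay in 1 KO 0 h list and in no other KO list.

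The 2 KO libraries gave like densities for the same closed region. The median ratio of replicate 1 to replicate 2 was 0.994, replicate 1 was higher in 940 of the 2181, and 1842 (84.5%) lay within 1.5-fold. Across the closed regions Spearman's rho between replicates was 0.812, as a description over regions that share 2 libraries. Over all regions in both 0 h lists it was 0.936.

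**Figure D1:**
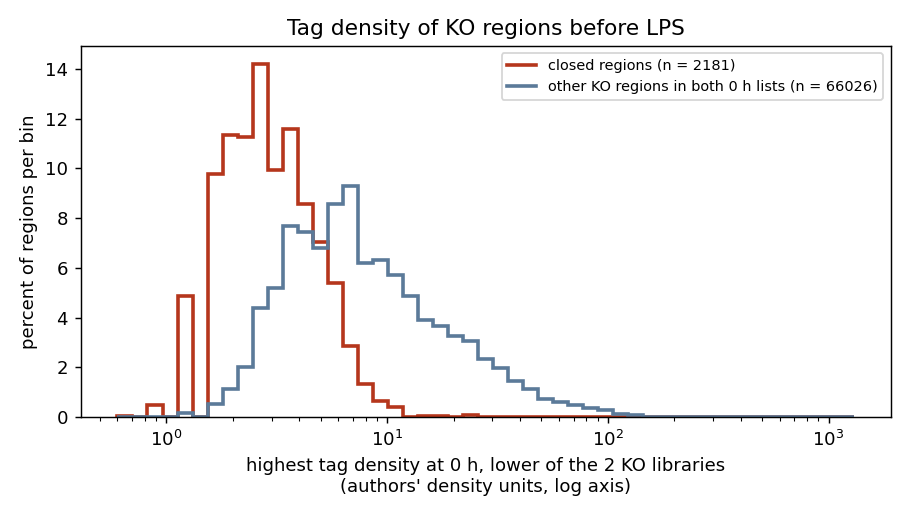
Highest tag density at 0 h, taken as the lower of the 2 KO libraries (log axis), against the percentage of regions per bin, for 2181 closed regions and 66026 other KO regions in both 0 h lists. The closed regions lie to the left, with 48.1% between 2.5 and 5 and 37.8% below 2.5, and the curves overlap.

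The fainter a region was before LPS, the more often it belonged to the closed ones. By the lower of the 2 KO 0 h densities, 824 of 3365 regions below 2.5 closed (24.5%), 1048 of 19720 between 2.5 and 5 (5.31%), 296 of 22537 between 5 and 10 (1.31%) and 13 of 22585 at 10 or above (0.0576%). The first 2 classes thus held 37.8% and 48.1% of all closed regions. The density of the faintest hotspot kept was 1.68 and 1.44 in the 3 h lists and 1.67 and 1.66 in the 8 h lists. This limit did not remove most closed regions, since 2003 (91.8%) had no hotspot in any later KO list as deposited. The lists give no density for a region without a hotspot, so whether these regions fell below the limit was not tested. These figures describe the choice and carry no test.

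Shortening the lists removed few traces of the closed regions. In the later KO lists as deposited, 2003 (91.8%) had no hotspot in any of the 4, 160 had one in 1 list, 16 in 2 and 2 in 3. R1570 (chr13:66767313-66767862) and R1925 (chr14:44658310-44658838) were the ones in 3 lists, named after their values were seen, and no closed region was in all 4. By list, 35 and 22 closed regions were found at 3 h and 44 and 97 at 8 h, with the highest number in the longest list. At the limit of the choice lay R2180 (chr17:69287693-69287994), with densities of 0.955 and 1.92 at 0 h, and R2181 (chr17:38933671-38934137), with 0.637 and 2.24. A region just outside it, chr1:13772718-13773356, had 1.91 and 2.56 at 0 h and was kept out by a 3 h hotspot of density 1.68 at rank 111541 of the 111553 kept. Another, chr11:71052572-71053143, had 3.18 and 1.60 at 0 h and a 3 h hotspot of 1.68 at rank 111476.

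The strongest closed regions by tag density are described one by one. They are numbered R1, R2 and on by the lower of their 2 KO 0 h densities, and none of the first 20 had a hotspot in any of the later KO lists as deposited. R1 (chr11:3030749-3031165) reached 27.4 and 25.6 in the KO 0 h libraries and R2 (chr11:3031442-3031758) 26.1 and 24.97. Both lie in a dense stretch of chromosome 11 in which the 30 kb from 3020000 held 8 to 15 hotspots in every one of the 15 lists, so other hotspots of the stretch were listed nearby at every time. Their Z-scores lay near the lower end of the KO 0 h lists (3.64 and 3.66), at 5.82 and 3.73 for R1 and 4.22 and 4.07 for R2, and the nearest later KO hotspot lay 770 bp from R1 and 177 bp from R2. R1 was listed in 8 of the 9 control lists, with 43.3 at 0 h, 36.6 at 3 h and 26.98 at 8 h in the littermate series.

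R3 (chr11:69502982-69503888) was the strongest closed region away from that stretch. Its densities were 16.9 and 26.2 in the KO 0 h libraries, with Z-scores of 14.9 and 20.9. In controls it was listed at 6.402 at 0 h and 8.99 at 8 h in the littermate series and at 9.95 at 0 h in WT replicate 1. R3 thus returned by 8 h in the littermate series and was in no later WT list.

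Most of the next strongest were seen in KO alone. R4 (chr7:26514082-26515119) had 15.9 and 14.1, R6 (chr10:79395150-79396031) 11.5 and 11.2, and R8 (chr11:114782466-114783327) 11.5 and 10.6, and none of these had a hotspot in any of the 9 control lists. R5 (chr2:164663055-164664987) had 11.8 and 11.5, and R18 (chr2:164661710-164662940), 1 of its neighbours, 9.23 and 10.6. These lie in a run of 3 closed regions over chr2:164661087-164664987, and neither was in a control list. R11 (chr2:163441060-163444599), the longest closed region, had 10.8 and 10.2 and was again in no control list.

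Other strong closed regions appeared in the littermate series before LPS and not after it. R7 (chr19:17255881-17257122) had 11.8 and 11.2 in KO, with Z-scores of 16.7 and 19.3, and 5.27 in the littermate 0 h list alone. R14 (chr4:133207209-133208240) had 9.87 and 11.2 in KO and 3.77 in that list, R16 (chr7:133819262-133820123) 10.8 and 9.28 in KO and 2.64 there, and R17 (chr1:137526072-137527044) 9.23 and 9.60 in KO and 3.77 there. In these 4 regions the littermate series had the 0 h hotspot and no later one, as KO did. Their Z-scores in the littermate 0 h list were 7.94 for R7, 4.84 for R14, 4.59 for R16 and 5.51 for R17. The lowest Z-scores listed in the littermate series were 4.38 at 0 h, 4.54 at 3 h and 3.65 at 8 h, so R14 and R16 lay near the limit of listing. R15 (chr8:129348292-129348851), with 10.8 and 9.60 in KO, was listed at 4.52 at 0 h and again at 8.66 at 8 h in the littermate series. R9 (chr3:96026663-96027278), with 10.5 and 14.1 in KO, was listed in the littermate series at 8 h alone, at 9.33.

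Of the 20 strongest, 11 were in no control list, 8 were in the littermate 0 h list, 2 in the littermate 3 h list and 4 in the littermate 8 h list. WT lists held 3 of them, R1, R2 and R3. The remaining 2161 closed regions had 0 h densities of 0.637 to 11.8 in KO replicate 1 and 1.28 to 11.5 in replicate 2.

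**Figure D2:**
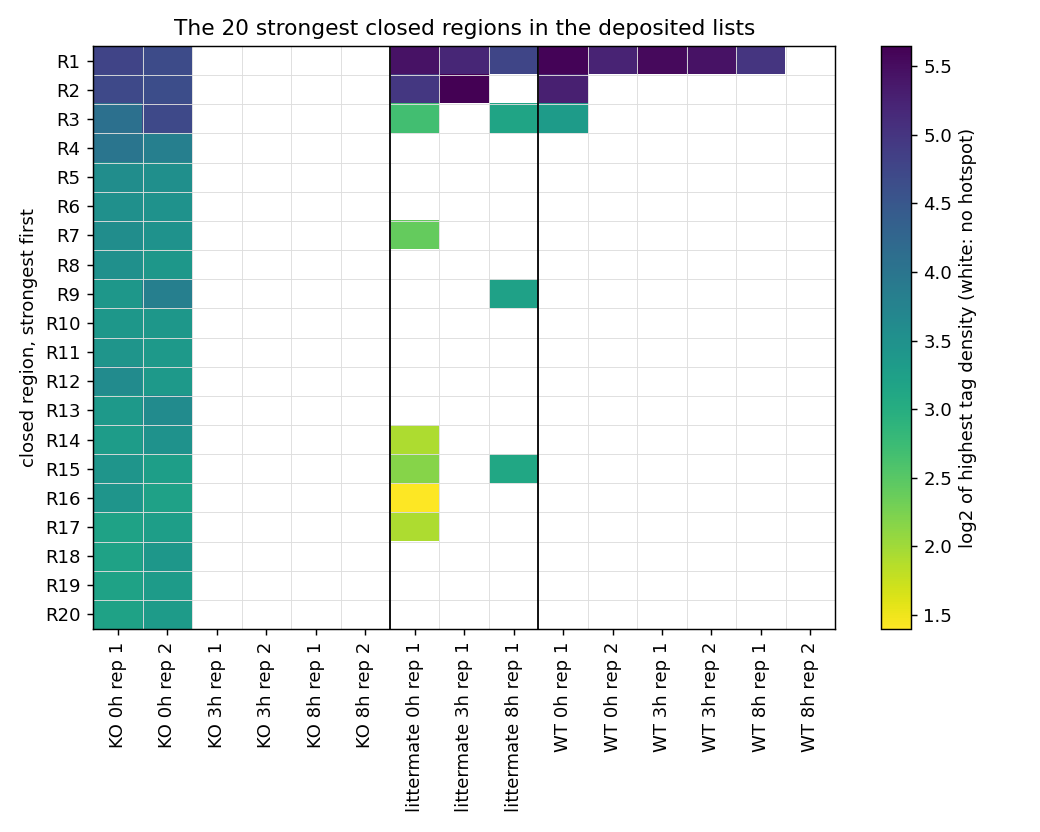
Log2 of the highest tag density of the 20 strongest closed regions (R1 to R20, top to bottom) in the deposited list of each of the 15 libraries, with KO on the left, littermate in the middle and WT on the right. White cells have no hotspot: every region is filled in both KO 0 h columns and white in the 4 later KO columns, and 11 are white in all control columns.

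The control lists took no part in choosing the regions, so they show the same places in control macrophages independently of the choice. In the littermate lists as deposited, 307 closed regions (14.1%, 95% Wilson interval 12.7 to 15.6) were listed at 0 h, 108 (4.95%, 4.12 to 5.94) at 3 h and 486 (22.3%, 20.6 to 24.1) at 8 h. In WT replicate 1 the numbers were 28, 8 and 70, and in WT replicate 2 they were 13, 9 and 77. All regions in both KO 0 h lists were found far more often, 50.3%, 42.2% and 82.0% in the littermate lists. In each of the 3 control series the closed regions were least often listed at 3 h and most often at 8 h, when the lists are also longest. Intervals here and below cover counting error only, and neighbouring regions and a shared library make regions less than independent.

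Closed regions listed in littermate macrophages before LPS were often lost there too, though more of them returned by 8 h. In the deposited lists 138 were absent at 3 h and listed again at 8 h, and 34 were in every littermate list. Of the 307 in the littermate 0 h list, 117 (38.1%, 32.9 to 43.7) were in neither later littermate list. Over all KO regions in both 0 h lists that were in the littermate 0 h list this share was 2.8%, and over those that had not closed in KO it was 2.49%, 846 of 34029. The gap was present in each density class before LPS. For regions below 2.5 the share was 49.2% (36.8 to 61.6) of closed regions, against 20.7% (16.8 to 25.2) of the others. Between 2.5 and 5 it was 36.3% (29.2 to 44.1), against 9.95% (9.02 to 10.96), and between 5 and 10 it was 34.5% (25.3 to 44.9), against 3.15% (2.82 to 3.51). Of the 4 such closed regions at 10 or above, 1 was lost, against 0.477% of the others. These shares are from the deposited lists, and the class at 10 or above rests on 4 closed regions. The intervals cover counting error over regions within 1 littermate library per time, so whether they overlap is no test.

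The closed regions were also fainter in the littermate 0 h library itself, with a median density of 4.14 against 5.27 for the others. Within classes of littermate density the gap was present below 10. Below 4, 65 of 151 closed regions (43.0%) were in neither later littermate list, against 7.16% of 7082 others. From 4 to 6 it was 48 of 135 (35.6%), against 2.59% of 12028, and from 6 to 10 it was 4 of 18 (22.2%), against 0.266% of 9761. At 10 or above, 0 of 3 closed regions were lost, too few to compare with 0.0194% of 5158 others. Closed regions as a whole were also shorter and had lower Z-scores in KO (medians 4.66 and 4.70, against 12.9 and 12.5). Neither split by density holds length or Z-score fixed, and the part of these in the gap was not tested directly. When presence required 50% of a region to be covered, the shares were 33.2% for closed regions and 3.47% for the others. With littermate lists cut to the same length of 52400 hotspots, 163 of 261 closed regions were lost (62.5%, 56.4 to 68.1), against 9.60% of the others and 10% of both together. By KO density the shares were then 73.7% (58.0 to 85.03) of closed regions below 2.5, against 53.5% (47.6 to 59.4) of the others, with intervals that overlap. They were 67.4% (59.1 to 74.7) against 40.3% (38.6 to 41.9) from 2.5 to 5, and 51.2% (40.7 to 61.6) against 14.5% (13.8 to 15.3) from 5 to 10. This split was looked at after the values were known, and the littermate series has 1 library per time, so no test over samples was possible.

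**Figure D3:**
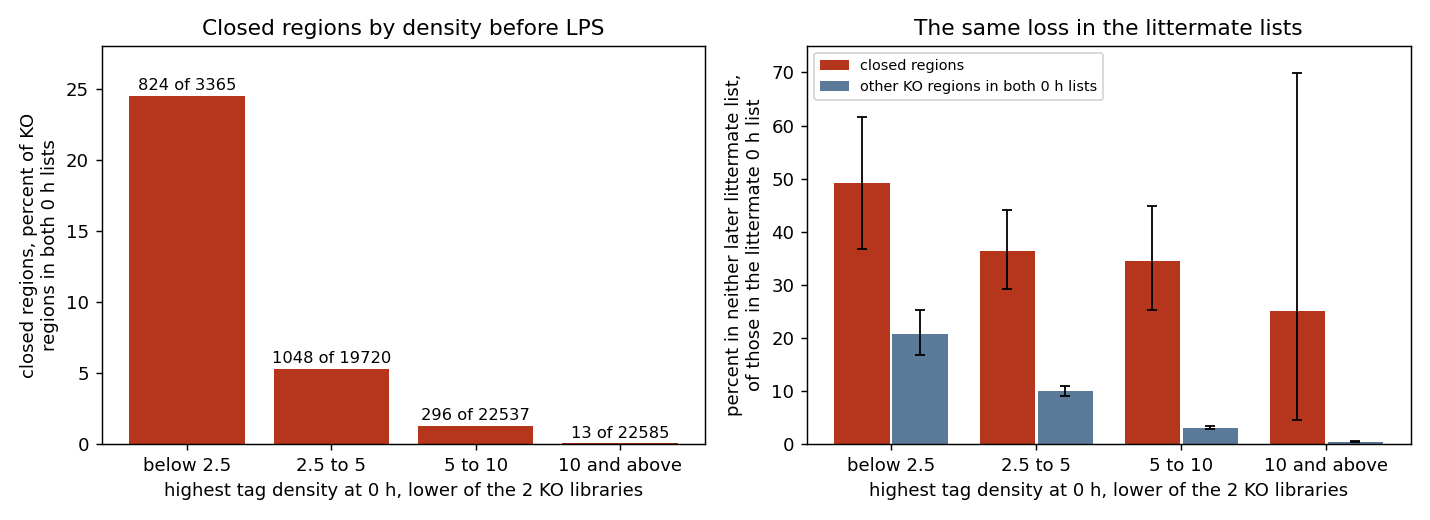
Left, closed regions as a percentage of KO regions in both 0 h lists, by the lower of the 2 KO 0 h tag densities, with the counts above the bars. Right, of the regions in the littermate 0 h list, the percentage in neither later littermate list, for closed regions and the other KO regions in both 0 h lists, with 95% Wilson intervals: 49.2% against 20.7% in the faintest class and 34.5% against 3.15% from 5 to 10.

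As a share of all 2181, closing in the littermate series was met by 5.36% (4.49 to 6.39), against 1.41% over all regions in both KO 0 h lists and 2.22% when the regions that did not close in KO were weighted to the same density classes. With lists of equal length the gap was small: 7.47% (6.44 to 8.65) of closed regions, against 4.89% over all and 6.404% of the density-weighted others. In the class below 2.5 closed regions then met the pattern less often, at 3.40% (2.36 to 4.87), against 5.67% (4.83 to 6.63) of the others. These shares count regions absent from the littermate 0 h list too, and closed regions were listed there less often than the others. In WT the matching pattern, both 0 h lists and none of the 4 later lists, was met by 2 closed regions (0.0917%), against 0.0513%. Only 7 closed regions (against 19.4% of all) were in both WT 0 h lists in the first place, so the 2 are 2 of 7, against 0.264% of all regions in both KO and both WT 0 h lists, and WT gives little to read at this threshold. These 7 were also the ones in all 3 control 0 h lists (0.321%, against 19.3%). R1875 (chr3:103203690-103204316) was the one in all 3 control 0 h lists and no later control list, a pattern met by 0.0044% of regions in both KO 0 h lists. Its 0 h densities were low, at 1.91 and 1.60 in KO, 2.64 in littermate and 1.59 and 1.47 in WT. Its 0 h Z-scores were 7.47 and 6.32 in KO, 9.51 in littermate and 9.57 and 9.34 in WT. It kept hotspots of 0.861 at 3 h and 1.66 at 8 h in KO replicate 2, below the limit of the shortened lists.

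Most closed regions had no counterpart in the controls. No control list held 1519 of them (69.6%, 67.7 to 71.5), against 15.7% of all regions in both KO 0 h lists and 31.5% of the non-closing regions weighted to the same density. Over all 219126 KO union regions the share was 62.8%, so absence from the control lists was frequent among KO regions in general. Absence from every littermate list, with 1 library per time, already covered 1524 closed regions (69.9%), so the WT lists changed the count little. Exactly 1 control list held 400, and 2 lists held 161. KO lists were longer and, on the reading of the density steps, the KO 0 h libraries (0.741 and 0.745) deeper than the littermate 0 h library (0.630). The part of these differences in the absence from control lists was not tested.

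In 14.4% of the closed regions, 314 in number, the littermate series ran the other way, with a hotspot at 8 h and none at 0 h. Over all regions in both KO 0 h lists this was more frequent, 33.3%. All 3 control 8 h lists held 40 closed regions (1.83%, against 50.9% over all and 20.9% of non-closing regions weighted to the same density), and 14 of the 40 were in no control 0 h list (0.642%, against 10.1%). The 8 h densities of the 40 had medians of 7.33 in littermate, 7.36 in WT replicate 1 and 8.504 in WT replicate 2. The examples that follow were chosen after their values were seen. R28 (chr11:117740192-117740673) had 8.59 and 11.5 in KO at 0 h and no later KO hotspot, and in littermate it had 5.65 at 0 h and 19.3 at 8 h, with 18.4 and 19.8 in WT at 8 h. R130 (chr9:123987935-123988537) had 6.37 and 6.08 in KO at 0 h, and was listed in controls at 8 h alone, at 13.3 in littermate and 10.4 and 13.2 in WT. The nearest later KO hotspot lay 5063 bp from R28 but 345 bp from R130, so for R130 a shift of a hotspot's edge and its loss cannot be told apart. R28 was thus listed before LPS alone in KO and at its highest at 8 h in the controls.

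R84 (chr8:75009430-75010104) was in all 9 control lists. In littermate it had 10.5 at 0 h, 11.7 at 3 h and 24.3 at 8 h, and in WT replicate 2 it had 8.10, 13.1 and 29.2 at those times, while in KO it had 8.91 and 6.72 at 0 h and a nearest later hotspot 482 bp away. R778 (chr5:104792201-104792666), with 3.50 and 3.52 in KO at 0 h, was the other one in all 9, so 2 closed regions met a pattern that 14.8% of all regions in both KO 0 h lists met. R376 (chr11:119238569-119239279) had 4.77 and 4.80 in KO at 0 h, and 4.90 at 0 h and 14.7 at 8 h in littermate. A return at 8 h was also met in number: 138 closed regions (6.33%, against 14.3%) had littermate hotspots at 0 h and 8 h but none at 3 h. With littermate lists of equal length, 55 did (2.52%, against 9.75%). In all, 34 closed regions (1.56%, against 34.5%) were in every littermate list.

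In each control series the 3 h list was shorter than the 0 h list and the 8 h list was the longest, and a longer list raises any share, so the change over time was tested in several ways over the 9 control libraries. The statistic was the mean share of closed regions at 0 h minus that at 3 and 8 h, with times permuted exactly within genotype (two-sided, 45 arrangements, smallest p 0.0222) and Benjamini-Hochberg adjustment over the 4 tests. In the lists as deposited the share was 5.79% ± 8.28 in the later lists (SD, n = 6) and 5.32% ± 7.59 at 0 h (SD, n = 3). The difference was -0.474 percentage points (exact permutation p = 0.956, adjusted 0.956), and the 3 series differed in sign. After WT lists were cut to 15659 hotspots and littermate lists to 52400, it was 2.00% ± 2.77 later (SD, n = 6) and 4.33% ± 6.62 at 0 h (SD, n = 3). That difference was 2.32 points (exact permutation p = 0.0444, adjusted 0.178), positive in 3 of 3 series, at 6.42 in littermate, 0.504 in WT replicate 1 and 0.0459 in WT replicate 2. It rests on the littermate series, since without it the difference was 0.275.

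Measured against the share of all regions in both KO 0 h lists in the same list, the difference was 13.4 points with deposited lists (exact permutation p = 0.333, adjusted 0.667) and 3.20 with lists of equal length (exact permutation p = 0.511, adjusted 0.681), positive in 3 of 3 series each. Both depend on the later time: with 3 h alone they were -0.729 and -0.0598, and with 8 h alone 27.6 and 6.46. Without the littermate series the value for lists of equal length was 0.385. None of the 4 tests passed an adjusted p of 0.05, so a fall of the closed regions in controls was not established over libraries. At the smallest exact permutation p of 0.0222, 1 test alone would have an adjusted p of 0.0889. A single test could therefore not pass by itself, and the lack of a pass does not show that no fall took place.

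The size of the difference by series can be read from the lists of equal length. In littermate, 12.0% of closed regions were listed at 0 h, 4.95% at 3 h and 6.14% at 8 h. For the non-closing regions of the same density classes the shares were 18.8% at 0 h, 15.9% at 3 h and 26.3% at 8 h. Closed regions were thus found 0.637 times as often as those at 0 h, 0.311 times at 3 h and 0.233 times at 8 h. The same ratios were 0.441, 0.147 and 0.107 in WT replicate 1 and 0.220, 0.103 and 0.109 in WT replicate 2, on 17 closed regions or fewer per WT list. In each series the ratio was highest before LPS, but in WT replicate 2 it rests on 5, 4 and 4 closed regions at 0, 3 and 8 h.

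**Figure D4:**
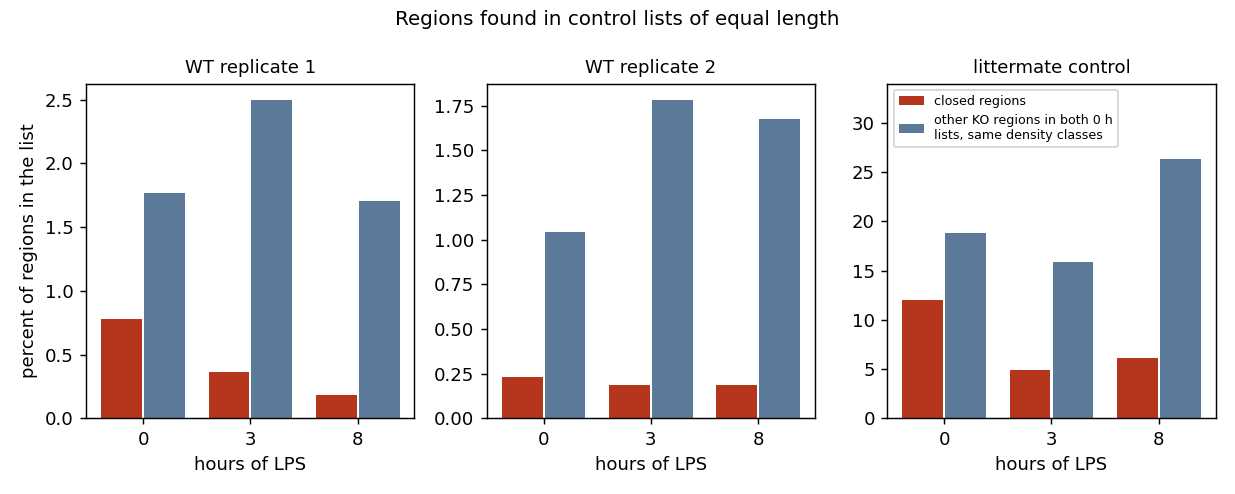
Percentage of closed regions, and of the other KO regions in both 0 h lists weighted to the same density classes, found in control lists of equal length after 0, 3 and 8 h of LPS, with 1 panel per control series and its own vertical scale. In littermate the closed regions are at 12.0%, 4.95% and 6.14% and the others at 18.8%, 15.9% and 26.3%.

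The closed regions lay apart from stable accessible chromatin when faint and near it when strong. The median distance to the nearest region in all 6 KO lists was 9145 bp (quartiles 2433 and 42664), against 4890 bp (1680 and 12912) for the other regions in both 0 h lists. Below a density of 2.5, the median was 71672 bp and 460 of 824 closed regions (55.8%) lay over 50 kb from such a region, against 18475 bp and 29.8% of the others in that class. Between 2.5 and 5 the median was 5739 bp for closed regions and 6641 bp for the others, and between 5 and 10 it was 2819 bp and 4471 bp. The order of the groups was therefore reversed between the faintest class and the classes above it. In the class from 5 to 10, 63.5% of closed regions had such a neighbour within 5 kb, against 53.1% of the others.

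**Figure D5:**
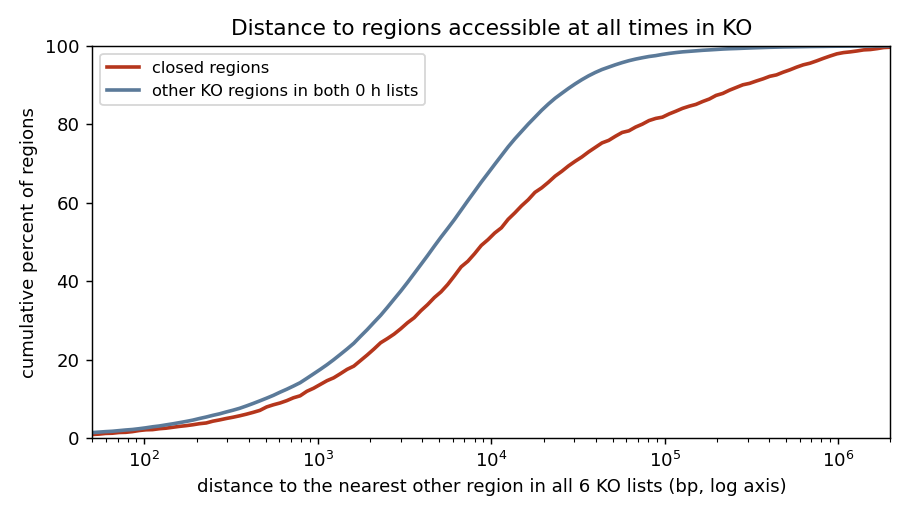
Cumulative percentage of regions by distance in bp (log axis) to the nearest KO region in all 6 lists, for closed regions and the other KO regions in both 0 h lists. The closed regions run lower throughout the range of 1 kb to 50 kb, with 76.6% against 95.0% within 50 kb.

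Closed regions lay farther from opening ones than the other regions did. The median distance to the nearest region opened by LPS was 155453 bp, against 95678 bp for the others, and 23.5% lay within 50 kb of one, against 33.4%. This distance was not split by density class, and the part of faintness in it was not tested. Closed regions also lay farther from any other KO union region, at a median of 2293 bp against 1739 bp. A later KO hotspot of any strength lay within 150 bp of 269 closed regions (12.3%) and within 1 kb of 715 (32.8%), and for these a shift of a hotspot's edge and its loss cannot be told apart. Few closed regions were grouped: 61 (2.80%) had another closed region within 5 kb. Of the other regions in both 0 h lists, 1.92% had a closed region within 5 kb. Joined at gaps of up to 10 kb, they formed 42 runs of 2, 2 of 3 and 1 of 4. The run of 4, at chr6:122528025-122534867, named after the runs were seen, held R49, R68, R153 and R171, with KO 0 h densities of 9.87 and 7.68, 7.32 and 7.04, 6.05 and 5.76, and 5.73 and 6.08. Of these, R68 was listed in littermate at 6.03 at 0 h and 6.99 at 8 h, R153 at 5.66 at 8 h, and R49 and R171 in no control list.

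By chromosome, the closed regions made up 1.98% (chromosome 19, 43 of 2175) to 3.74% (chromosome 3, 135 of 3608) of the regions in both KO 0 h lists. Chromosome 11, where 125 of 4741 closed (2.64%), was also low although it held R1, R2, R3 and R8. The most, 179, lay on chromosome 2.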

How the data were processed

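DNase-seq hotspot lists of 15 libraries were used, 1 per library, grouped by genotype and hours of LPS as the labels give them. The authors deposited, per the file headers, each hotspot's position, highest and mean tag density (a signal), Z-score (a score) and p-value. CASAVA and mm9 are named in the submitters' processing notes. Not given in the sources used here are the aligner, the caller of hotspots with its threshold, the scaling of the densities, and whether positions count from 0 or 1. The p-values were not used.

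KO lists were ranked by highest tag density (ties by mean density, then position) over all chromosomes, cut to 111553, restricted to chromosomes 1 to 19 and merged at 1 bp. Regions named are, in order of the lower 0 h density, the first 20, up to 10 in all 3 control 0 h lists and no later one, up to 5 in no control list, up to 5 in none of the later KO lists as deposited, and those at the rank limit. Others are said to be chosen after their values were seen. The members and lists were chosen with earlier results of these data known. Shares have Wilson 95% intervals. The density of a region in a list is that of its strongest hotspot there. Density steps were called whole within 0.05 of a step. Tests and alternatives are as stated beside the results and below. Gene, motif and cell type marker analyses were not done, since no mm9 annotation was used. Python 3.11.15, numpy 2.4.6, pandas 2.3.3 and scipy 1.17.1 were used.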

Additional observations from a re-analysis of the deposited data

Results flagged for a closer look

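The closed regions' share in the deposited control lists changed in opposite directions in the littermate and the WT series. The share at 0 h minus the mean at 3 and 8 h was 0.459 percentage points in littermate, against -0.504 in WT replicate 1 and -1.38 in WT replicate 2. The difference was not tested, and with lists of equal length all 3 values were positive.

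Chromosome X lies outside the choice of regions. The same rule gave 88 closed regions there, 4.26% of the 2065 in both KO 0 h lists, of which 14 were in the littermate 0 h list and 61 in no control list. On chromosome Y it gave 0 of 75.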

How the results depend on the processing

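The number of closed regions stayed within 1.5 times 2181 under every alternative but leaving out a KO replicate, which gave 29173 to 30102, with WT closing at 0.00686 to 0.00997%, littermate closing at 1.95 to 2.13%, and 50.5 to 54.8% (deposited) and 67.1 to 71.1% (equal length) of those in the littermate 0 h list lost later. The 2181 made up 7.25% and 7.48% of the regions closed without KO replicate 1 and 2. At 0.5 times the list length 2461 closed, and 361 of the 2181 were among them. There the control shares averaged 19.003% later and 15.8% at 0 h, and 15.6% (deposited) and 46.5% (equal length) of those in the littermate 0 h list were lost, against 1.11% and 5.02% of the others. Without any shortening 2003 of the 2181 closed, and with 50% of a region covered 1826, with littermate closing at 3.70%. R1875, R1570, R1925 and R778 were not closed when ranked by Z-score or with lists as deposited, nor was R1875 when ranked by mean density, nor R1925 with 50% covered. At 0.5 times the length these 4, R376, R2180 and R2181 were not closed. With 3 h alone against 0 h, 3 differences changed sign: 3.41 points for deposited lists, and -0.729 (deposited) and -0.0598 (equal length) relative to all regions in both KO 0 h lists. No alternative took a test past an adjusted p of 0.05 (lowest 0.0889), but leaving out a control series or using 1 later time could not (smallest p 0.111 without a WT replicate, 0.0667 without littermate, 0.167 for 1 time). In the other sets of 4 tests, 1 test alone at its smallest p could not pass either. Replicate numbers did not pair the WT libraries (correlations of deviations 0.124, 0.00748 and -0.0093). With the replicate number as a block the differences were -0.474, 2.32, 13.4 and 3.20 (exact permutation, adjusted p 0.963, 0.148, 0.741 and 0.741), and no call changed. With a background of the same density class, added after seeing the data, they were 13.9 and 3.45 (adjusted p 0.333 each). Control lists at 0.5 times the equal length gave 0.917 and 1.04 and have no value for deposited lists. Depth is unknown and limits the faint regions most.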
